A study of Mus musculus with 154 samples.

Results

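Chromosome substitution strains (CSSs) are mice in which a whole chromosome of the inbred strain C57BL/6J (B6) has been replaced by that of the inbred strain A/J. The double CSS described here, (B6.A4 X B6.A17)F1, combines the substitutions of chromosomes 4 and 17, and its mice were heterozygous for both. Mice were chosen by their strain label, which lists the sire first. There were 4 mice of the double CSS, 8 of the single CSS (B6.A4 X B6)F1, which carries the A/J chromosome 4 alone, 8 of the single CSS (B6 X B6.A17)F1, which carries the A/J chromosome 17 alone, and 20 of the control strain B6, which makes 40 mice, and the series holds another 114 mice of 20 other strains. These 40 mice were males aged 5 weeks that had been fasted overnight, and total RNA of the caudate lobe of the liver was sequenced. The dams of the double CSS and of (B6 X B6.A17)F1 came from B6.A17, whereas those of B6 and (B6.A4 X B6)F1 were B6, so the chromosome 17 substitution and the strain of the dam cannot be told apart. The flow cell on which each library was sequenced is not given, and no values within flow cells could be computed.

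A substituted chromosome can change the expression of genes located on it (cis) or of genes on other chromosomes (trans), for instance where a regulator encoded on it differs between the strains. When both substitutions are carried by the same mouse, independent effects are expected to add up on a log scale. A departure from that sum is an interaction, and a locus pair that causes one is called an interaction expression QTL (ieQTL). The liver makes a useful tissue for such comparisons because hepatocytes dominate its RNA and because fasting engages glucose production, fat oxidation and the handling of iron and other micronutrients. The 8 measured hepatocyte marker genes together had normalised read levels between 100292 and 121333 CPM (reads scaled to a library of fixed total) in the double CSS mice, against between 103342 and 163707 CPM in B6.

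The read totals of the double CSS mice lay between 11925607 and 17747838 counts, within the range of the B6 mice (from 6752637 to 25630807). For each of 13289 genes, the A4 effect, the A17 effect and the A17:A4 interaction were estimated as log2 fold changes in a single model of all mice of the series. The interaction is the log2 amount by which the double CSS departs from the added single effects, and a value of 0 stands for additivity. Values after ± are standard errors. Adjusted p-values (FDR) were obtained with the quasi-likelihood F-test of edgeR and corrected by the Benjamini-Hochberg method, and a gene is called at an FDR under 0.05. The double CSS, both single CSSs and B6 share mice between these comparisons, so the effects of a gene are given side by side and not as independent results.

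The double CSS departed from the additive sum at 161 genes, which is 1.21% of the genes tested. It lay above the sum at 80 genes (0.602%) and below it at 81 genes (0.61%), with a median absolute interaction of 0.52 on the log2 scale. On chromosomes 4 and 17 there were 25 called genes of 1436 tested (1.74%), 14 of them on chromosome 4 and 11 on chromosome 17. On the other chromosomes the share was 1.15% of 11853 genes. An unadjusted p-value under 0.05 was reached by 2076 genes. The number of calls rested on single mice of the double CSS. Without mouse 1 it was 26, all of them among the 161, and without mouse 4 it was 38, of which 35 were among the 161. Without mouse 2 it was 111 and without mouse 3 it was 178. It was 87 without 1 mouse of another strain, which entered the same fit and whose Y-linked counts were near 0. With 10 surrogate variables in place of 5 only 6 genes were called, and without any 367, although in every one of the fits the interaction of each of the called genes that it tested kept its sign.

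**Figure D1:**
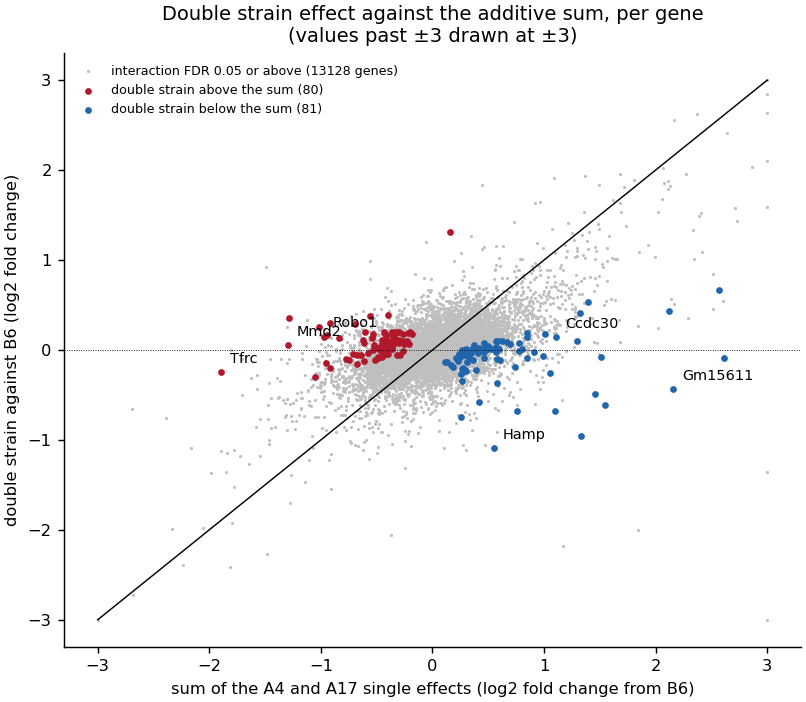
Each point is a gene, placed by the sum of its A4 and A17 effects (x axis, log2) and by the effect of the double CSS against B6 (y axis, log2), with values past 3 drawn at the border. Genes on the diagonal are additive. The 80 genes called above the sum (red) and the 81 called below it (blue) lie mostly near the horizontal line at 0, with Hamp among the exceptions.

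Most called interactions brought the double CSS closer to B6 than the sum of the single effects would. By that definition 152 of the 161 genes (94.4%, Wilson 95% interval from 89.7% to 97.0%) were antagonistic, and for 110 of them (68.3% of the 161, from 60.8% to 75.01%) at least 1 single CSS differed from B6 while the comparison of the double CSS with B6 had an unadjusted p-value above 0.1. The median absolute sum of the single effects of the called genes was 0.45 and the median absolute effect of the double CSS was 0.10. These shares describe the called genes and are not tested, because the interaction contains both single effects with a negative sign. The intervals cover counting error only and take the genes as independent, although all rest on the same 4 double CSS mice. When 1 of those mice was left out, the antagonistic share was 86.8% to 100%. Among all 13289 genes the interaction was opposite in sign to the sum in 78.2%, and among the called genes in 160 of the 161. The sign alone is a wider criterion than antagonistic, which also needs the double CSS to be closer to B6 than the sum. The 9 called genes that were not antagonistic, named here after their values were seen, were Apom, Arih1, Dhx9, Eef1g, Hamp, Ms4a4d, Pcdh7, Rcan2 and Rpp40.

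Against B6, 552 genes differed in the double CSS (4.15% of those tested), 329 with higher and 223 with lower levels. On the substituted chromosomes they were 198 of 1436 genes (13.8%), 82 of them on chromosome 17 and the others on chromosome 4, and elsewhere 354 of 11853 (2.99%). The count rested on single mice here as well, with 221, 313 and 174 calls without mouse 1, 2 or 3 of the double CSS and 5.08% of the genes called without mouse 4. In the model the A4 effect was called at 1791 genes (13.5%), with 211 of the 806 genes on chromosome 4 (26.2%), and the A17 effect at 488 genes (3.67%), with 108 of the 630 genes on chromosome 17 (17.1%).

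The interaction with the smallest p-value was that of Tfrc (chr16:32608920-32632794, GRCm38/mm10), which encodes transferrin receptor 1, the receptor through which cells take up transferrin-bound iron. The stability of its mRNA is controlled by iron-responsive elements in the 3′ UTR, hairpins with a CAGUGN loop to which iron regulatory proteins bind when iron is scarce. Ireb2, the gene of iron regulatory protein 2, was also among the called genes, so matches to such elements in Tfrc are shown. They were located in the longest GENCODE vM21 transcript as a C, 5 stem bases, the loop CAGTGN and 5 bases that pair with the stem, on the transcribed strand only. Each is shown with 4 bases beyond this match on either side. Capitals mark the loop, and the coordinates, on GRCm38/mm10, are chr16:32631221-32631245, chr16:32631600-32631624, chr16:32631665-32631689 and chr16:32631712-32631736, all on the plus strand and in the 3′ UTR of Tfrc.
Tfrc element 1: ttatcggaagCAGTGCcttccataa
Tfrc element 2: ttatcgggagCAGTGTcttccataa
Tfrc element 3: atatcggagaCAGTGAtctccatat
Tfrc element 4: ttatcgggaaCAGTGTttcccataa
Of 13242 transcripts searched, 230 (1.74%) held at least 1 such match, and Tfrc, with 4, was the only one with at least 3. The transcripts of Ireb2, Hamp, Slc11a2 and Epas1 held none. The search covered 1 transcript per gene and this form of the hairpin only, so elements may have been missed, in Tfrc too. A match in these letters is a description and was not measured as binding.

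Tfrc stood at 99.0, 65.7, 34.9 and 39.0 CPM in mice 1 to 4 of the double CSS. In B6 it ranged from 45.01 to 99.6 CPM (median 69.3), in (B6.A4 X B6)F1 from 26.6 to 53.5 (median 38.8), and from 31.4 to 80.2 in (B6 X B6.A17)F1 (median 38.9). Mice 1 and 2 of the double CSS were thus at the level of B6, mice 3 and 4 were at the level of the single CSSs, and the groups overlapped. Tfrc fell by 0.99 ± 0.17 on the log2 scale with the A4 substitution (edgeR FDR = 1.7e-05) and by 0.90 ± 0.17 with the A17 substitution (edgeR FDR = 0.00069). The sum of both effects was -1.90, while the double CSS differed from B6 by -0.25 ± 0.20 (unadjusted p = 0.22 in the same test). The interaction was 1.65 ± 0.28 (edgeR FDR = 0.00028). It was called in the main fit and in each of the 15 alternative fits, and leaving out 1 double CSS mouse moved it between 1.33, without mouse 1, and 1.79. Mouse 1 also had the highest summed level of the 6 measured erythroid markers, 743 CPM against 321, 283.7 and 278 CPM in mice 2 to 4 and a range of 111 to 740.6 CPM in B6, and the part of red cell precursors, which express Tfrc, in this result was not tested.

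**Figure D2:**
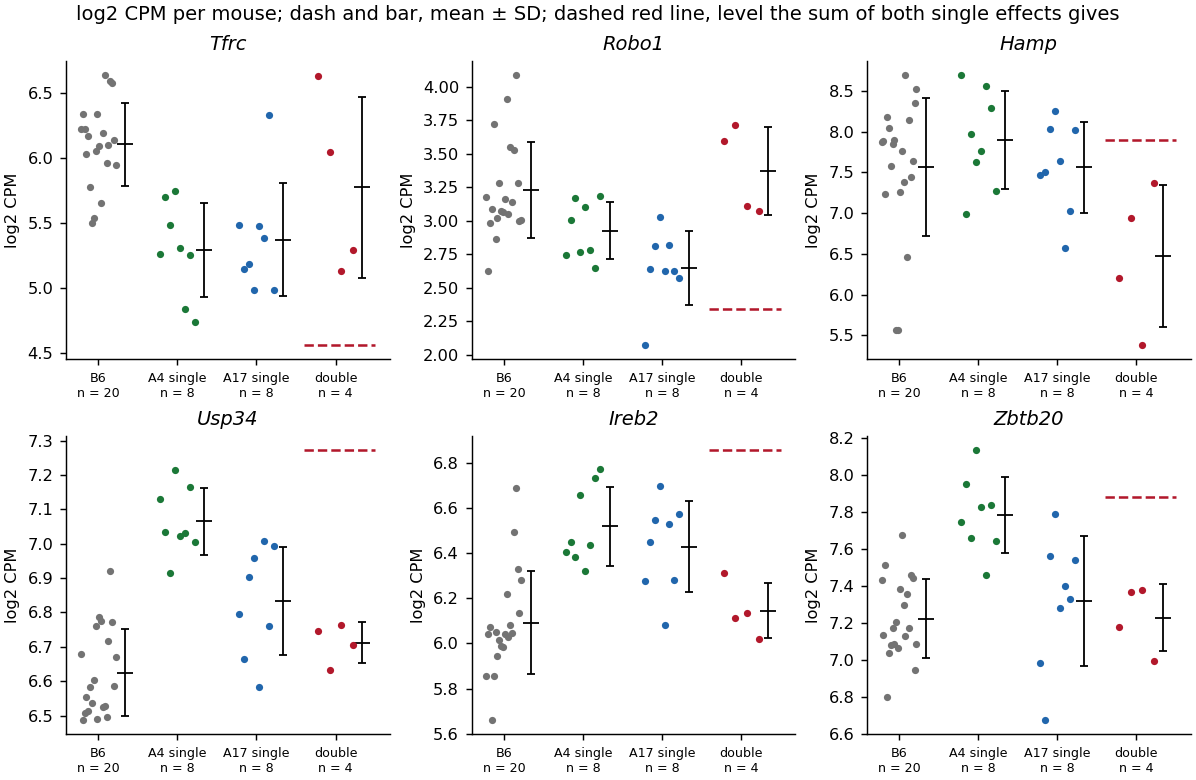
Expression on the log2 CPM scale (y axis) of 6 genes in each mouse of B6 (n = 20), the A4 single CSS (n = 8), the A17 single CSS (n = 8) and the double CSS (n = 4). The dash with its bar is the mean ± SD and the dashed red line is the level that the sum of both single effects gives. All 4 double CSS mice lie above that line for Tfrc and Robo1 and below it for Hamp, Usp34, Ireb2 and Zbtb20.

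Ireb2 (chr9:54863789-54912530) showed the opposite pattern. It stood at 79.2, 69.1, 70.1 and 64.7 CPM in the 4 double CSS mice, which all lay below the lowest of the (B6.A4 X B6)F1 mice (from 79.8 to 109 CPM, median 86.8). The B6 mice ranged from 50.4 to 102.9 CPM (median 65.9) and the (B6 X B6.A17)F1 mice from 67.6 to 104 CPM (median 89.7), and both overlapped with the double CSS. Ireb2 rose by 0.40 ± 0.08 with A4 (edgeR FDR = 0.00031) and by 0.29 ± 0.08 with A17 (edgeR FDR = 0.032), and the interaction was -0.63 ± 0.15 (edgeR FDR = 0.018). It stayed called in 3 of the 4 fits that left out a double CSS mouse, with an FDR of 0.056 without mouse 4.

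Hamp (chr7:30942368-30944032), which encodes hepcidin, the liver hormone that lowers iron export into the blood by removing ferroportin from cell membranes, differed from both. The 4 double CSS mice had 73.5, 123, 41.4 and 165.05 CPM. B6 mice ranged from 47.0 to 416 CPM (median 223.8), (B6.A4 X B6)F1 mice from 127 to 416 (median 233) and (B6 X B6.A17)F1 mice from 94.9 to 305 (median 190), and the double CSS overlapped with each of them. Neither single effect was called (0.47 ± 0.23 for A4, edgeR FDR = 0.18, and 0.08 ± 0.24 for A17, edgeR FDR = 0.91). In the double CSS Hamp fell by 1.09 ± 0.33 against B6 (edgeR FDR = 0.045), and the interaction was -1.64 ± 0.43 (edgeR FDR = 0.039). The call was lost in 2 of the 4 fits that left out a double CSS mouse (FDR up to 0.11, without mouse 1).

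Because 3 called genes act in iron handling, a list of 23 genes of iron and heme metabolism was drawn up after their values had been seen, and it is described without a test. The interaction was called in 3 of the 23, which were Tfrc, Ireb2 and Hamp, the genes that prompted the list. This count can therefore not be set against the share over all genes (1.21%), and no other gene of the list was called. The median interaction over the list was -0.00062, against -0.0042 over all genes. Trf (transferrin, -0.02 ± 0.12), Fth1 and Ftl1 (the ferritin chains, 0.12 ± 0.11 and 0.07 ± 0.10), Slc40a1 (ferroportin, 0.04 ± 0.12), Aco1 (iron regulatory protein 1, 0.03 ± 0.10) and Tfr2 (transferrin receptor 2, 0.17 ± 0.11) had interactions within 0.20 of 0 on the log2 scale. Values of greater size that were not called included those of Hamp2, a second hepcidin gene (0.86 ± 0.45), Hpx (hemopexin, -0.54 ± 0.18), Slc39a14 (0.43 ± 0.17) and Slc11a2, an iron transporter (0.31 ± 0.11). Of the genes that set hepcidin transcription, Bmp6, the ligand, had an interaction of -0.18 ± 0.23, Hfe2 (hemojuvelin, a coreceptor) of -0.01 ± 0.11 and Id1, a target of the same BMP signal, of -0.40 ± 0.41. Against B6 the double CSS had called differences at 4 of the 23 genes (all genes, 4.15%), all of them lower: Hamp, Id1 (-1.06 ± 0.30, edgeR FDR = 0.031), Alas1, the first enzyme of heme synthesis (-1.06 ± 0.31, edgeR FDR = 0.042), and Slc39a14, a zinc and iron transporter (-0.41 ± 0.12, edgeR FDR = 0.049).

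**Figure D3:**
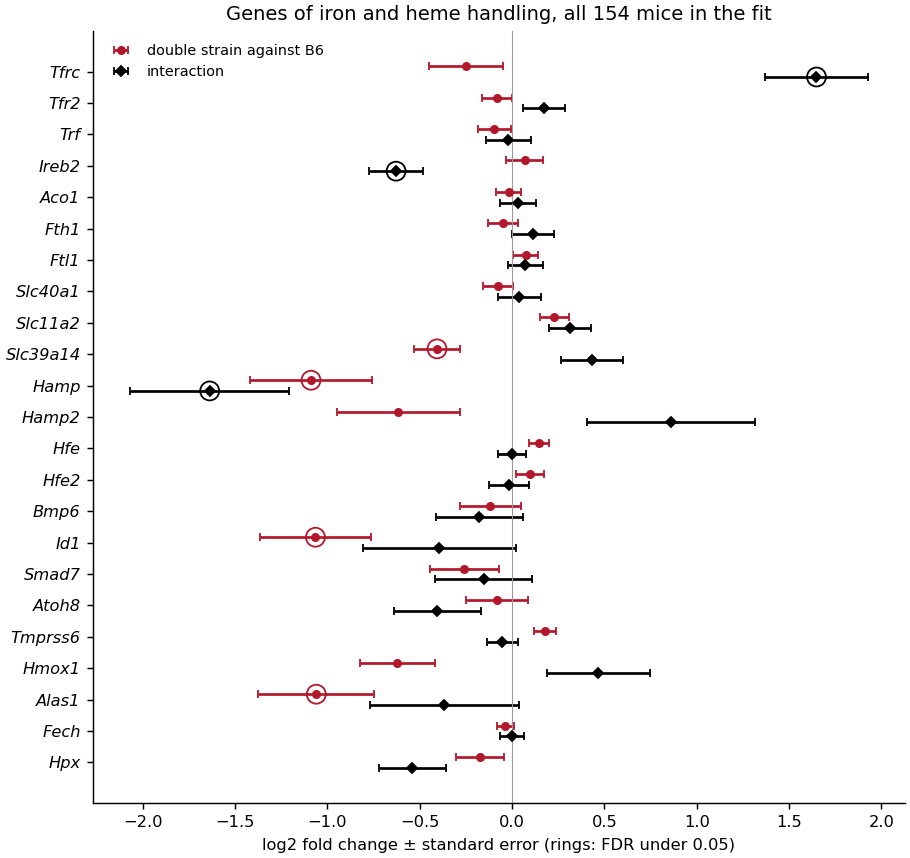
Log2 fold changes (x axis, ± standard error) of 23 genes of iron and heme handling for the double CSS against B6 (red circles) and for the interaction (black diamonds), with a ring where the FDR was under 0.05. Tfrc is far right, Hamp far left and Ireb2 left among the interactions, while the ferritin genes, ferroportin and transferrin lie near 0.

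Robo1 (chr16:72308306-73046095), a receptor for SLIT guidance cues, was the other named gene called in all fits. It stood at 11.9, 13.02, 8.52 and 8.27 CPM in the double CSS mice, all above the highest (B6 X B6.A17)F1 mouse (from 4.08 to 8.03 CPM, median 6.08), and overlapped with B6 (from 6.06 to 16.9, median 8.54) and with (B6.A4 X B6)F1 (from 6.13 to 8.98, median 7.35). As for Tfrc, mice 1 and 2 had the higher levels. The A17 effect was -0.61 ± 0.13 (edgeR FDR = 0.0066), the A4 effect -0.36 ± 0.13 (edgeR FDR = 0.050) and the interaction 1.12 ± 0.22 (edgeR FDR = 0.0045). The interaction moved between 1.003 and 1.21 when 1 double CSS mouse was left out.

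Podxl, Ubqln4, Mmd2 and 1810019D21Rik also lay above the sum. Podxl, which encodes the cell surface sialomucin podocalyxin, had 6.38, 9.86, 12.9 and 7.61 CPM in the double CSS mice, against a range of 3.56 to 7.53 CPM in (B6 X B6.A17)F1, with which it overlapped. Its interaction was 0.97 ± 0.22 (edgeR FDR = 0.016). Ubqln4, a shuttle factor that brings ubiquitinated proteins to the proteasome, had 22.3, 22.3, 22.8 and 19.9 CPM against a median of 15.7 in (B6 X B6.A17)F1 and 19.2 in B6, and an interaction of 0.53 ± 0.11 (edgeR FDR = 0.0045). The interaction of Mmd2 was 1.35 ± 0.37 (edgeR FDR = 0.045) and that of the processed transcript 1810019D21Rik 0.98 ± 0.25 (edgeR FDR = 0.034). Both of these kept the call in only 1 of the 4 fits without a double CSS mouse.

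Among the genes below the sum, Usp34 (chr11:23306895-23490560), a large deubiquitinase, had the smallest p-value. It stood at 107, 99.0, 109 and 104 CPM in the double CSS, within the range of B6 (from 89.5 to 121, median 95.9) and below every (B6.A4 X B6)F1 mouse (from 121 to 148, median 130.9). The (B6 X B6.A17)F1 mice (from 95.7 to 128, median 115) overlapped with it. Usp34 rose by 0.39 ± 0.05 with A4 (edgeR FDR = 4.4e-09) and by 0.20 ± 0.05 with A17 (edgeR FDR = 0.017), and the interaction was -0.49 ± 0.09 (edgeR FDR = 0.00092). The double CSS differed from B6 by 0.10 ± 0.06 (edgeR FDR = 0.43). Of the 16 fits, 15 called it.

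Tmem72 and Vps13b followed the same course. Tmem72, a membrane protein gene, had 82.2, 89.8, 84.2 and 96.3 CPM in the double CSS, below all (B6.A4 X B6)F1 mice (from 101 to 156), with an interaction of -0.52 ± 0.10. Vps13b, a bridge-like lipid transfer protein, had 127, 121.8, 113 and 112 CPM against a median of 123.7 in B6 and 140.6 in (B6.A4 X B6)F1, with an interaction of -0.36 ± 0.07. Dirc2, a lysosomal transporter, had an interaction of -0.54 ± 0.12 (edgeR FDR = 0.011), called in 3 of the 4 fits without a double CSS mouse. Gm37738, a TEC locus (a transcribed region without an established gene model), had -0.93 ± 0.19 (edgeR FDR = 0.0054) and the long noncoding RNA Gm15611 had -2.59 ± 0.73 (edgeR FDR = 0.048). Gm15611 varied from 1.07 to 29.5 CPM within (B6.A4 X B6)F1 and lost the call whenever any 1 double CSS mouse was left out. The strand setting of the counting is not given, so reads of such loci may belong to a gene on the other strand or to the intron that holds them.

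Liver transcription factors set hepatocyte identity, and of 21 measured genes of that list, 3 had a called interaction (all genes, 1.21%). Zbtb20 (chr16:42875881-43642602), which represses the fetal gene Afp in the adult liver, stood at 144, 165.006, 166 and 127 CPM in the double CSS. Those values were below all 8 (B6.A4 X B6)F1 mice (from 176.005 to 281, median 220) and within the ranges of B6 (from 111 to 204, median 144) and (B6 X B6.A17)F1 (from 102 to 221, median 164.7). Zbtb20 rose by 0.40 ± 0.08 with A4 (edgeR FDR = 0.00037), the A17 effect was 0.19 ± 0.08 (edgeR FDR = 0.16) and the interaction -0.58 ± 0.15 (edgeR FDR = 0.027). The call was lost in 2 of the 4 fits without a double CSS mouse. Afp itself had an interaction of 0.33 ± 0.39 (edgeR FDR = 0.73).

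Onecut2, a hepatocyte and bile duct factor, had 85.1, 80.2, 72.1 and 66.2 CPM, again below all (B6.A4 X B6)F1 mice (from 93.6 to 126), and an interaction of -0.59 ± 0.14 (edgeR FDR = 0.022). Rxra, the common partner of the nuclear receptors for fatty acids, bile acids and oxysterols, went the other way. It had 294, 296.6, 308 and 350 CPM in the double CSS, above all mice of both single CSSs (up to 282 CPM with A4 and up to 283 CPM with A17) and overlapping with B6 (from 227 to 348). Its interaction was 0.42 ± 0.10 (edgeR FDR = 0.024), while neither single effect was called (-0.16 ± 0.06 and -0.18 ± 0.06). The call of Rxra was kept in 2 of the 4 fits without a double CSS mouse, and that of Onecut2 in 3. Hnf4a, the central hepatocyte factor, had an interaction of 0.43 ± 0.13 that was not called (edgeR FDR = 0.078). The median interaction of the list was 0.10.

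Raph1, which encodes the actin regulator lamellipodin and was taken up by the study for this cross, missed the threshold here and was called in 7 of the 16 fits. It stood at 66.8, 66.3, 66.4 and 67.4 CPM in the double CSS, below all (B6.A4 X B6)F1 mice (from 80.5 to 120, median 101), and overlapped with B6 (from 39.0 to 106, median 71.2). Raph1 rose by 0.26 ± 0.06 with A4 (edgeR FDR = 0.0012), and its interaction was -0.36 ± 0.10 (edgeR FDR = 0.059). The difference of the strain means of log2 CPM, without surrogate variables, gave -0.65.

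On the substituted chromosomes, the interactions with the smallest p-values were those of Ticam1, Lnpep and Skiv2l on chromosome 17 and of Ccdc30, Macf1 and Plekhf2 on chromosome 4. Ticam1 (chr17:56269319-56276786), the adaptor TRIF of Toll-like receptor signalling, had 7.73, 9.29, 9.97 and 13.3 CPM in the double CSS, which overlapped with B6 (from 6.63 to 15.5), with (B6.A4 X B6)F1 (from 4.91 to 9.60) and with (B6 X B6.A17)F1 (from 6.64 to 11.6). It fell by 0.69 ± 0.11 with A4, the chromosome that does not carry it (edgeR FDR = 3.7e-06), and the A17 effect was -0.27 ± 0.10 (edgeR FDR = 0.061). The interaction was 0.80 ± 0.18 (edgeR FDR = 0.022).

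Ccdc30 (chr4:119322893-119415521), a coiled-coil protein gene, stood at 15.2, 14.5, 11.5 and 9.89 CPM in the double CSS, against a median of 11.7 in B6, 18.1 in the A4 single CSS and 15.1 in the A17 single CSS. It rose by 0.58 ± 0.12 with A4 and by 0.53 ± 0.13 with A17, and the interaction was -0.96 ± 0.23 (edgeR FDR = 0.022). Lnpep, an insulin-regulated aminopeptidase, had 54.4, 53.0, 56.6 and 55.0 CPM and Macf1, a large linker of actin and microtubules, 235, 241.3, 236 and 222 CPM, in both cases below all (B6.A4 X B6)F1 mice (from 59.5 to 74.1 and from 251 to 296). Their interactions were -0.34 ± 0.08 and -0.26 ± 0.06, that of Plekhf2, an endosomal protein, -0.44 ± 0.11, and that of Skiv2l, a helicase of the cytoplasmic exosome, 0.40 ± 0.10. Each of these 6 genes kept its sign in all fits, and each lost the call in at least 1 fit without a double CSS mouse.

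The genes with the smallest p-values for the double CSS against B6 each had a called effect in a single CSS too. Of all 552 genes called in the double CSS, 246 had no called effect in either single CSS, which alone does not show that the effects differed. Cyp4a32 (chr4:115600969-115621602), a fatty acid hydroxylase, had 247, 245, 187.7 and 219 CPM in the double CSS, far above B6 (from 14.1 to 56.6) and (B6 X B6.A17)F1 (from 15.6 to 52.6) and overlapping with (B6.A4 X B6)F1 (from 167.8 to 255). It rose by 2.63 ± 0.14 against B6 and by 2.51 ± 0.12 with A4 alone, and the interaction was 0.26 ± 0.23 (edgeR FDR = 0.63). Alad, the second enzyme of heme synthesis on the same chromosome, had 88.4, 87.2, 82.8 and 66.0 CPM, above every B6 mouse (up to 56.1), with an effect of 0.80 ± 0.08 in the double CSS and 0.65 ± 0.07 with A4.

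From chromosome 17, Glo1 (chr17:30584936-30626871), the glyoxalase that detoxifies methylglyoxal, had 479, 401.5, 505 and 393.5 CPM, above B6 (from 150 to 334) and within the range of (B6 X B6.A17)F1 apart from mouse 4 (from 399 to 705). It rose by 1.04 ± 0.09 in the double CSS and by 1.06 ± 0.08 with A17. Abca3, a lipid transporter, had 59.7, 78.2, 71.0 and 64.7 CPM, above B6 (up to 40.8), with effects of 1.19 ± 0.09 and 0.91 ± 0.08. C4a, a complement component gene, had 27.8, 30.7, 30.5 and 15.6 CPM, against at most 4.43 in B6, with effects of 3.17 ± 0.16 and 2.55 ± 0.14. C4a has a near-identical neighbour, so the assignment of its reads is uncertain. Rprl3, an RNase P RNA-like gene on chromosome 8, had 50.9, 71.9, 35.6 and 49.98 CPM against at most 0.461 in B6 and between 55.9 and 98.4 in (B6.A4 X B6)F1. This gene belongs to a family of similar copies, and its reads cannot be placed with certainty either. None of these genes had a called interaction.

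The major urinary proteins (Mup), pheromone carriers secreted by the liver of male mice, are encoded in a cluster on chromosome 4. Of 18 measured Mup genes, 11 rose with A4 (called with A4, 13.5% of all genes and 26.2% of those on chromosome 4). In the double CSS 11 rose against B6 (called, 4.15% of all genes and 13.8% of those on chromosomes 4 and 17). The interaction was called at 0 of the 18 (all genes, 1.21%), although 9 had an unadjusted p-value under 0.05 for it. Their interactions lay between -2.03 and -0.03 (median -1.22). Mup5 had 20.8, 8.53, 25.4 and 15.9 CPM in the double CSS, against at most 3.41 in B6, and Mup9 had 45.2, 34.4, 94.7 and 15.1 CPM, against at most 9.51. The A4 effect of Mup9 was 4.15 ± 0.31, its A17 effect 1.36 ± 0.38 and its interaction -1.58 ± 0.60 (edgeR FDR = 0.16). These genes are nearly identical, and reads may have been split between them.

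The rule used here for additive genes needed calls in both single CSSs, so its count does not measure how common additivity was. With a called effect of the same sign in both single CSSs and an unadjusted interaction p-value above 0.1, 12 genes qualified, and Usp2, Gm43305 and Gm42428 had the largest sums. Usp2, a deubiquitinase with a daily rhythm in the liver, had 2.94, 3.98, 4.31 and 14.02 CPM in the double CSS, against medians of 13.1 in B6, 7.39 in the A4 single CSS and 7.44 in the A17 single CSS, and overlapped with all of them. It fell by 0.90 ± 0.30 with A4 and by 0.996 ± 0.30 with A17, and the interaction was 0.77 ± 0.53 (edgeR FDR = 0.49), an interval too wide to show additivity. For Gm43305 the effects were -0.55 ± 0.19, -0.92 ± 0.19 and, in the double CSS, -1.05 ± 0.25 (interaction 0.42 ± 0.32). For Gm42428 they were -0.62 ± 0.17, -0.84 ± 0.18 and -1.001 ± 0.22 (interaction 0.46 ± 0.30). For Gm43305 and Gm42428, too, the interval was too wide to show additivity. Of the 4 double CSS mice, mouse 4 had the highest level of each of the 3 genes.

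Called interactions in the gene lists of liver pathways were about as frequent as over all genes. Of 526 measured genes in 26 lists, 7 had one (all genes, 1.21%), in 5 of the lists. Besides the transcription factors they were Ndufs6 (-0.32 ± 0.08) and Ndufb11 (-0.32 ± 0.09), subunits of respiratory complex I, among 75 nuclear genes of the respiratory chain (median interaction -0.07), Birc6, a very large ubiquitin ligase (-0.29 ± 0.08), among 18 ligases (median -0.09), and Tet3, a DNA demethylase (0.54 ± 0.13), among 29 chromatin regulators (median -0.03). Birc6 had 233, 218, 223 and 203 CPM in the double CSS, below all (B6.A4 X B6)F1 mice (from 238 to 301). Tet3 had 17.4, 25.1, 24.9 and 25.1 CPM, with medians of 23.03 in B6 and 17.3 in (B6 X B6.A17)F1. In the 4 fits without a double CSS mouse, Ndufs6, Ndufb11 and Birc6 each kept the call in 2, and Tet3 in 3.

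In the other pathways the interaction of no gene was called, and the effects of the double CSS stood beside those of the single CSSs as follows. Called counts from 4 double CSS mice and from 8 mice of each single CSS are not on an equal footing. Of 20 circadian clock genes, 11 were called with A4 (all genes, 13.5%), 1 with A17 (3.67%) and 1 in the double CSS (4.15%), Per1, which fell by 0.91. An unadjusted p-value under 0.05 was reached by 14 of the 20 with A4 and by 11 in the double CSS. Over all genes these numbers were 3725 and 2530 of 13289. The median effects of the list were -0.22 with A4 and -0.25 in the double CSS. Of 25 genes of the unfolded protein response and secretion, 10 were called with A4 and 0 with A17 and in the double CSS. Of 22 genes of fatty acid oxidation and ketogenesis, 7 were called with A4, all lower, and 1 in the double CSS. For gluconeogenesis the counts were 3 of 11 with A4 and 0 in the double CSS, with a median interaction of 0.12. Of 24 genes of the major histocompatibility complex (MHC) and antigen presentation, many of which lie on chromosome 17, 8 were called with A17 and 7 in the double CSS. H2-Q2 rose by 2.62 with A17 and by 2.64 in the double CSS, and H2-T22 fell by 0.58 and by 0.79. Class I genes of the MHC are similar in sequence, so reads may have been split.

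The list with the lowest median interaction was that of male-biased liver genes (-0.70, 19 genes, 7 of them Mup genes), followed by glucocorticoid and stress responsive genes (-0.43) and acute phase genes (-0.37, 21 genes). In the acute phase list 7 genes rose with A4 (all genes called with A4, 13.5%) and 0 were called in the double CSS (4.15%). An unadjusted p-value under 0.05 was nevertheless reached by 11 of the 21 in the double CSS against B6, and by 7 with A4. The median effect of the list was -0.30 in the double CSS and 0.08 with A4. Saa2, an acute phase apolipoprotein, rose by 2.84 ± 0.58 with A4, and its interaction was -3.84 ± 1.22 without passing the threshold (edgeR FDR = 0.087). Elovl3, a fatty acid elongase that is higher in males, had an interaction of -2.06 ± 0.65 (edgeR FDR = 0.087), and Orm1, another acute phase gene, of -0.72 ± 0.22 (edgeR FDR = 0.074).

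Cell type markers, hepatocyte genes included, showed 0 called interactions among 60 measured genes (all genes, 1.21%). At that share 60 genes are too few for 0 calls to tell anything about cell types. The summed levels of the double CSS lay between 414 and 567 CPM for Kupffer cells and macrophages and between 338 and 389 CPM for sinusoidal endothelium, within the ranges of B6 (from 373.9 to 627 and from 318.2 to 409). For hepatic stellate cells and fibroblasts they lay between 389.1 and 509.9 CPM, reaching below B6 (from 416 to 659.99), and for the 2 measured adipocyte genes between 9.33 and 18.2 CPM, also reaching below B6 (from 10.8 to 54.7). For the erythroid list the range was 278 to 743 CPM in the double CSS, 111 to 740.6 in B6, 172 to 485.1 in the A4 single CSS and 170 to 348.97 in the A17 single CSS. The median interaction of its 6 genes was 1.03, and 4 of them had an unadjusted p-value under 0.05 for it (all genes, 2076 of 13289). For the A17 effect 5 of the 6 had an unadjusted p-value under 0.05 (all genes, 2534 of 13289), with a median of -0.66. Of the skeletal muscle list only Myh4 was in the table, with counts in 5 of the 8 (B6 X B6.A17)F1 mice (up to 23.5 CPM) and in 0 of the 4 double CSS mice. It also had counts in 8 of the 20 B6 mice (up to 1.45 CPM) and in 4 of the 8 (B6.A4 X B6)F1 mice (up to 3.63 CPM). No marker of pancreatic acinar cells was among the genes of the table. In bulk RNA, fewer cells of a type and less RNA per cell cannot be told apart.

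The called genes shared features of sequence that the selection had not used. Transcripts of genes above the sum had a median GC content of 53.96% and those below it of 44.1%, against 48.8% over all genes with a transcript. The total exon length had a median of 5459 bases above the sum, 6540 below it and 4280 over all genes, and 31 of the 81 genes below the sum were longer than 10000 bases, against 9 of the 80 above it and 1248 of 13289 over all. Long named examples below the sum were Usp34, Vps13b, Zbtb20, Macf1 and Birc6. Short ones were Hamp (410 bases), Ndufs6 (898) and Ndufb11 (908), while Robo1 (16511) and Tet3 (16695), above the sum, were long. The first quartile of length was 2040 bases below the sum and 2643 over all genes. Called genes also had higher levels, with a median average log2 CPM of 4.46 above the sum, 4.70 below it and 3.56 over all genes. Of the 81 genes below the sum 11 were TEC loci (all genes, 451 of 13289). Of the 80 above the sum 79 were protein-coding (all genes, 11889 of 13289).

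**Figure D4:**
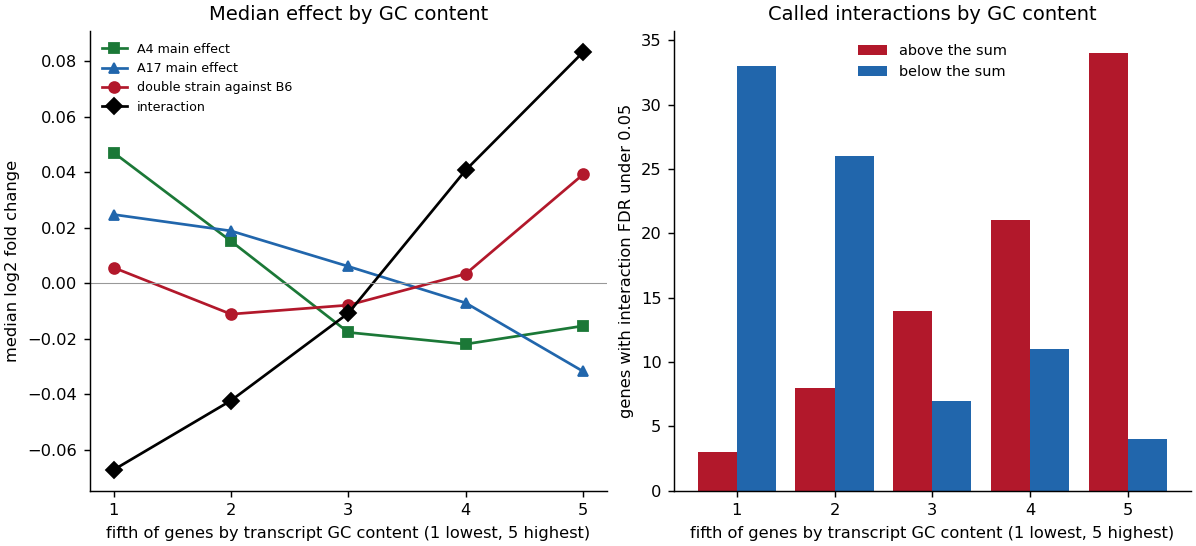
Genes were divided into 5 groups of equal size by the GC content of their longest transcript. The left panel shows the median log2 fold change in each group for A4, A17, the double CSS against B6 and the interaction, and the right panel the number of called interactions above and below the sum. The median interaction goes from -0.07 in the group with the lowest GC content to 0.08 in the highest, and calls below the sum go from 33 to 4.

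The shift with GC content was not limited to the called genes. When all genes were divided into 5 groups by GC content, the median interaction was -0.067, -0.042, -0.011, 0.041 and 0.083 from the lowest to the highest group, and called genes below the sum numbered 33, 26, 7, 11 and 4. Called genes above the sum numbered 3, 8, 14, 21 and 34. The median level of the group with the highest GC content minus that of the lowest, relative to the B6 mean on the log2 scale, was -0.06, 0.11, 0.04 and 0.09 in mice 1 to 4 of the double CSS. It ranged from -0.28 to -0.01 in (B6.A4 X B6)F1 (median -0.12), from -0.19 to 0.07 in (B6 X B6.A17)F1 (median -0.10) and from -0.21 to 0.15 in B6 (median 0.02). The part of this shift in single interactions was not tested.

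Several of the named genes had interactions of the same sign in other double CSSs that share a single CSS and the B6 mice with this one, so that the values are not independent. For Tfrc the interaction was 1.49 ± 0.28 in A14:A4 (edgeR FDR = 0.0003), 0.73 ± 0.26 in A6:A4 (edgeR FDR = 0.14), 1.11 ± 0.28 in A17:A8 (edgeR FDR = 0.006), 0.71 ± 0.27 in A17:A10 (edgeR FDR = 0.24) and 0.88 ± 0.27 in A17:A5 (edgeR FDR = 0.27). For Usp34 it was -0.41 ± 0.09, -0.49 ± 0.08, -0.40 ± 0.09, -0.09 ± 0.09 and -0.12 ± 0.08 in the same order, and the first 3 were called. For Ireb2 it was -0.47 ± 0.14, -0.51 ± 0.14, -0.41 ± 0.14, -0.16 ± 0.14 and -0.19 ± 0.14. For Hamp it was -0.67 ± 0.42, -0.30 ± 0.40, -0.48 ± 0.42, 0.40 ± 0.41 and -0.09 ± 0.41, and none of these was called. Differences between crosses were not tested.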

How the data were processed

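The authors aligned single-end reads of stranded total RNA libraries to mm10 with TopHat2 and the GENCODE vM7 annotation, mapped reads left over to a genome individualized for A/J, removed duplicate and low-quality reads, genes with few reads and 3 outlier mice, and used HTSeq-count to obtain a count for each gene. These deposited raw counts carry no normalization, and every column was mapped to a mouse by its label. From them, TMM factors, 5 surrogate variables (svaseq, sva 3.50.0) and edgeR's quasi-likelihood F-test (edgeR 4.0.16, legacy=TRUE, R 4.3.3) were computed for all 154 mice with 8 main effects and 15 interactions. Benjamini-Hochberg adjustment was made separately for genes on and off the substituted chromosomes. The double CSS against B6 is the sum of both main effects and the interaction. Standard errors are the log2 fold change divided by the square root of F. CPM values are normalized by TMM, and those on the log2 scale have a prior count of 2. Positions come from GENCODE vM21 on the same build, and 13242 of 13289 genes matched.

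The genes named were, at an average log2 CPM of at least 2 and an FDR under 0.05, the 10 interactions with the smallest p-values, the 8 largest, the 6 with the smallest p-values on chromosomes 4 and 17, the 8 smallest p-values of the double CSS against B6, 3 additive genes, Zbtb20 and Raph1, and up to 3 called members of each gene list. 1 gene that the rule selects is not reported here. Genes outside this rule are named as examples of lists or after their values were seen. The strains, gene lists and tests were chosen with earlier results of these data known. The mice of a strain were separate animals, and the 3 excluded mice are not in the table. The model was run on simulated counts in which mice shared no hidden shifts and genes had no single effects. It called 91 of 100 interactions of log2 size 1, 98 of 100 of size 1.5 and 15 of 13089 genes without one. Because of those settings, the outcome does not measure how reliable the calls in these mice are. Other settings tried were 10 surrogate variables or 0, their estimation from unscaled counts, DESeq2's size factors and Wald test (DESeq2 1.42.0), legacy=FALSE, count filters of at least 15 in 75% of the mice (the study's stated filter, which 11852 of the 13289 deposited genes pass here) or in every mouse, other adjustments and thresholds, the 40 mice alone, and leaving out mice. Wilson intervals cover counting error only.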

Additional observations from a re-analysis of the deposited data

Results flagged for a closer look

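The interaction at 161 genes is itself a difference between effects, since the A4 effect in mice with the A/J chromosome 17 differed from that in mice without it at an edgeR FDR under 0.05.

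Single mice stood far from the rest of their group in 7 groups, which is 5.98% of the groups examined for the 39 named genes, where the gap of the highest or lowest log2 CPM to the nearest mouse, divided by the range of the group, was above Dixon's 95% critical value. Chance marks about 1 in 20 groups by that criterion. In the double CSS these were Ubqln4 in mouse 4 (19.9 CPM against 22.3 to 22.8 in the others), C4a in mouse 4 (15.6 CPM against 27.8 to 30.7) and Tet3 in mouse 1 (17.4 CPM against 24.9 to 25.1). In (B6 X B6.A17)F1 they were Tfrc in mouse 7 (80.2 CPM against 31.4 to 44.7), Mmd2 in mouse 1 (5.86 CPM against 10.1 to 14.6), Mup5 in mouse 8 (0 CPM against 0.525 to 2.01) and Birc6 in mouse 2 (164 CPM against 208 to 257).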

How the results depend on the processing

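No paired analysis was possible because the labels give no replicate numbers that the strains share.

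The number of called interactions (161) moved to 367 with 0 surrogate variables, 6 with 10, 331 with a count of 15 in 75% of the mice, 9 at an FDR threshold of 0.01, 23 in the 40 mice alone with 0 surrogate variables and 87 without a mouse of another strain with Y-linked counts near 0. Leaving out 1 double CSS mouse gave 26 to 178. The cause was not tested. With 0 surrogate variables 113 of the 161 were among the calls, and with a DESeq2 Wald test (192 calls) 160. The share above the sum went from 80 of 161 to 227 of 367 with 0 surrogate variables, 18 of 118 with a count of 15 in every mouse and 38 of 134 in the 40 mice alone with 5, and was 60 of 130 with DESeq2's size factors.

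The share of genes called for the double CSS against B6 (4.15%) moved to 1.16% with 0 surrogate variables, 2.69% with those from unscaled counts, 2.44% with a count of 15 in every mouse, 1.23% at the 0.01 threshold, 0.873% and 0.655% in the 40 mice alone with 5 and 0 surrogate variables, and 1.31% to 5.08% without 1 double CSS mouse. That of the A4 effect (13.5%) moved to 2.71% with 10 surrogate variables, 5.6% at the 0.01 threshold and 6.55% in the 40 mice with 0, and was 12.6% to 14.4% without 1 double CSS mouse. That of the A17 effect (3.67%) moved to 13.02% with 0 surrogate variables, 0.948% with 10, 1.46% and 0.586% with the stricter count filters, 0.61% at the 0.01 threshold, 0.339% and 7.04% in the 40 mice alone with 5 and 0, and was 3.01% to 4.47% without 1 double CSS mouse.

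The antagonistic share was 100% with 10 surrogate variables and at the 0.01 threshold, and 86.8% to 100% without 1 double CSS mouse. The reverted share was 77.4% with surrogate variables from unscaled counts, 77.8% at the 0.01 threshold, 82.6% in the 40 mice with 0 surrogate variables, and 63.1% to 76.9% without 1 double CSS mouse.

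Over 656 values of the 39 named genes under these settings, 139 kept the direction and lost the call, 7 gained it (all of Raph1), 4 changed sign, and the others kept both. The 4 were Usp2, -0.15 with 10 surrogate variables and -0.12 to 1.05 without 1 double CSS mouse, and Gm43305, -0.073 in the 40 mice with 5 surrogate variables and -0.10 to 0.66 without 1, with the negative value without mouse 4 for both.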
